A study of Homo sapiens with 60 samples.

Results

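Sagunja-tang and Samul-tang are traditional herbal formulas of Korean medicine, and their water extracts were compared at the same dose, 500 µg/mL, and the same time, 24 h, in the human astrocytoma cell line SW1783. The libraries were chosen by their titles, which name the formula and the high dose. They are 5 of 60 RNA-seq libraries in the series, 3 with Sagunja-tang and 2 with Samul-tang. A further Samul-tang replicate was not analysed here. The same formulas at 100 µg/mL and 20 µg/mL (3 libraries of Sagunja-tang and 2 of Samul-tang at each dose) and 3 vehicle libraries (labelled 0.1% DMSO, 24 h) served as references. The series' description gives 2% DMSO for the vehicle, and for the extract samples no DMSO level is stated in the labels. All libraries used the same line with no genetic change named in the labels, so it is a model of 1 tumour-derived line and not of brain tissue. The labels number the replicates without saying if each was its own culture. The p-values therefore weigh a difference only against the spread among these libraries, which may be technical.

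By tradition Sagunja-tang is made from ginseng root, Atractylodes rhizome, Poria and licorice, and Samul-tang from prepared Rehmannia root, Angelica root, Cnidium rhizome and Paeonia root. The labels do not list the ingredients. Several pathways that follow are inducible. NF-kB transcription factors are held in the cytoplasm by inhibitor proteins and, once released, switch on chemokines, cytokines, adhesion molecules and their own inhibitors. In astrocytes and glioma cells this programme is known for the release of IL6 and of CXCL8, the neutrophil-attracting chemokine once called interleukin 8. Interferon-stimulated genes are switched on by interferons and take part in antiviral defence, and the aryl hydrocarbon receptor (AHR) is a sensor of planar aromatic compounds, including many from plants, that switches on CYP1 enzymes.

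Each of the 5 libraries held 23366514 to 27832504 expected counts, within the range of all 60 libraries (20604792 to 29609799), and 6.464% to 6.916% of them came from mitochondrial mRNA. Levels are given as CPM, which is counts scaled to a common library total with TMM factors, so a level can be compared between libraries for 1 gene but not between genes of different length. Fold changes come from a quasi-likelihood fit in edgeR over 54 libraries, which estimates the spread over all groups together. Standard errors (SE) were derived from the fold change and the F statistic of its test, and 95% intervals from these SE, so both are approximate. A gene is called changed where its adjusted p is under 0.05. At 20 µg/mL, Sagunja-tang library 1 stood apart from its replicates (ROMO1, which encodes a small mitochondrial membrane protein, was at 130 CPM there and at 31.8 and 32.8 CPM in the other libraries of that group), and it widened the shared estimate of the spread. The defining astrocyte genes GFAP, S100B, AQP4, ALDH1L1, SLC1A2 and SOX2 were each under 0.5 CPM in all 5 libraries. They are 6 of 12 listed astrocyte and glioma markers, which also include SLC1A3, GJA1, SOX9, NES, CLU and VIM. The 12 summed to 5312 to 5692 CPM with Sagunja-tang, 5518 to 5816 CPM with Samul-tang and 6265 to 6495 CPM in vehicle. A sum mostly reflects its highest members. Of 7 tested, 1 was called lower with Sagunja-tang than with Samul-tang (NES, log2 -0.68) and 0 higher. Against vehicle, 4 were called lower and 0 higher with Sagunja-tang, and 0 were called with Samul-tang. The T cell genes CD3E, CD3D and CD2 were at 0, as were TYROBP and P2RY12 of myeloid cells. Of the 10 listed myeloid and microglia markers, 5 more were under 0.5 CPM in all 5 libraries. The 10 summed to 166.8 to 178.4 CPM with Sagunja-tang, 128.5 to 146.2 CPM with Samul-tang and 165.3 to 177.3 CPM in vehicle, and 0 of 4 tested were called between the formulas.

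Of 17516 genes tested, 1464 (8.36%) were called between the formulas at 500 µg/mL. Of these, 715 (4.08%) were higher with Sagunja-tang and 749 (4.28%) were higher with Samul-tang. The difference was at least 2-fold for 142 of the first and 118 of the second. Among genes whose higher group averaged 5 CPM or more, the 7 with the largest differences were higher with Sagunja-tang and encode chemokines and cytokines. The 15 named genes that were highest with Sagunja-tang were CXCL1, CSF3, CXCL8, CXCL3, CXCL2, CXCL5, IL6, IER3, ICAM1, TNFRSF9, BIRC3, IL32, CLDN1, SOD2 and LRRN3. The 15 that were highest with Samul-tang were VIPR1, ITGB4, IFITM10, SLC7A8, SFRP2, EGR1, C5, VAV3, OLFML2B, SECTM1, AKR1B10, EGR3, LONRF2, MUC1 and ANK3. The count of called genes depended on which libraries set the spread: it was 3067 without Sagunja-tang library 1 of the low dose, 2389 with the 5 libraries alone, 371 with the 15 libraries of the formulas alone, and 702 without Samul-tang library 2 of the high dose. All 30 genes were called in each of these fits, except AKR1B10, LONRF2 and MUC1 with the 15 libraries of the formulas. With so few libraries, groups without overlap were common: 40.9% of all tested genes had none between the formulas (20.7% higher and 20.3% lower with Sagunja-tang).

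**Figure D1:**
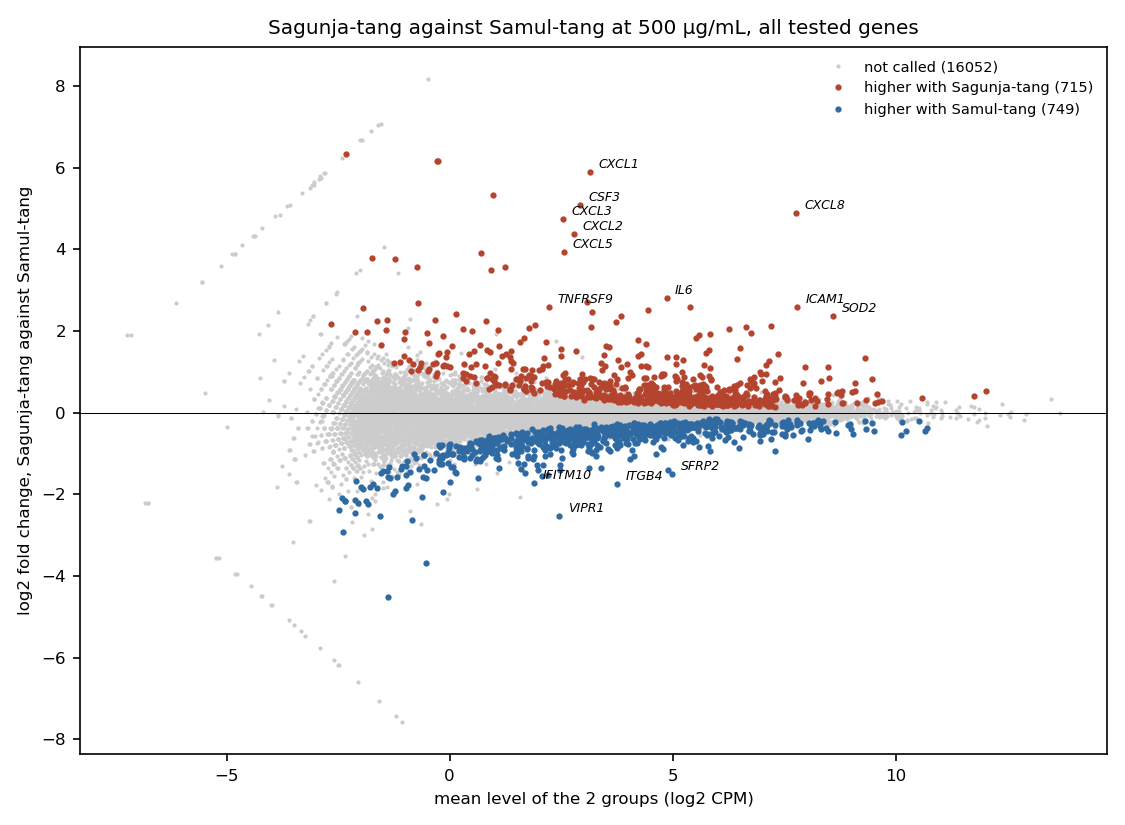
Log2 fold change of Sagunja-tang (n = 3) against Samul-tang (n = 2) at 500 µg/mL for each tested gene (vertical axis) by its mean level in the 2 groups (horizontal axis, log2 CPM). Red points are the 715 genes called higher with Sagunja-tang, blue points the 749 called higher with Samul-tang and grey points the genes not called. The chemokines CXCL1, CXCL8, CXCL3, CXCL2 and CXCL5 lie above 3.9 on the log2 scale, and VIPR1 is the lowest of the labelled genes at -2.53. Grey points on slanted lines at the left are genes with no count in 1 group.

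Each formula was also compared with the vehicle libraries, which held DMSO and were not untreated. Sagunja-tang differed from vehicle in 2987 genes (17.1%), of which 1566 (8.94%) were higher and 1421 (8.11%) lower, and Samul-tang differed from vehicle in 724 genes (4.13%), of which 400 (2.28%) were higher and 324 (1.85%) lower. The count and split for Samul-tang depended on single libraries: 224 genes were called without Samul-tang library 1 (67.4% of them higher), 463 without library 2 (45.4% higher), and 2336 without Sagunja-tang low library 1 (1034 higher and 1302 lower). Without that low-dose library 5400 genes were called for Sagunja-tang. Both comparisons use the same 3 vehicle libraries, whose sample codes put them in another set than the formulas, so that set and treatment cannot be told apart there. The direct comparison of the formulas lies within 1 set. Groups did not overlap in 47.2% of tested genes for Sagunja-tang against vehicle (25.2% higher) and in 43% for Samul-tang against vehicle (22.6% higher). Without TMM factors the split moved, to 63.1% of calls higher than vehicle for Sagunja-tang (52.4% with them) and 79.0% for Samul-tang (55.2% with them).

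Among the chemokines, those of the CXC class with an ELR motif bind CXCR1 and CXCR2 and attract neutrophils. CXCL8 was at 439, 433 and 389 CPM in the 3 Sagunja-tang libraries and at 15.3 and 13.0 CPM in the Samul-tang libraries. The groups lay far apart, and the Samul-tang libraries were close to vehicle (10.99 CPM on average). CXCL8 was 29.8-fold higher with Sagunja-tang (log2 difference 4.89 ± 0.15 SE, 95% interval 4.58 to 5.21, adjusted p = 3.64e-26).

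CXCL1 was at 18.3, 16.6 and 17.7 CPM with Sagunja-tang and at 0.368 and 0.212 CPM with Samul-tang, a 59.7-fold difference (log2 5.90 ± 0.36 SE, adjusted p = 1.72e-16). CXCL1 therefore had the highest fold of the named genes, from a low base. CXCL2 was at 12.8, 14.3 and 12.7 CPM against 0.772 and 0.496 CPM, CXCL3 at 10.8, 10.9 and 12.1 CPM against 0.478 and 0.354 CPM, and CXCL5 at 10.8, 11.6 and 10.96 CPM against 0.662 and 0.779 CPM. The log2 differences of these neighbours on chromosome 4 were 4.38, 4.75 and 3.93, and no library of either formula overlapped the other. CXCL1, CXCL2 and CXCL3 are near-identical copies, so reads shared between them could have been divided by the estimate of the counts. CXCL6 was at 0.733, 0.983 and 0.680 CPM with Sagunja-tang and at 0.0736 and 0.0354 CPM with Samul-tang (adjusted p = 0.000779).

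All 6 tested members of this list were called higher with Sagunja-tang, with a median log2 difference of 4.56, where the median of all tested genes was 0.001. PPBP was at 0 in all 5 libraries. Summed over the list, the level was 443.1 to 492.4 CPM with Sagunja-tang and 14.88 to 17.61 CPM with Samul-tang. Against vehicle, 6 of 6 were called higher for Sagunja-tang and 0 of 6 were called for Samul-tang, where the largest of the 5 genes named above, CXCL8, had a log2 difference of 0.36 (adjusted p = 0.141).

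The promoters of these genes are shown because the NF-kB site is their best known shared element. The windows are 250 bases upstream of the RefSeq start site (GRCh38.p14), 5′ to 3′ on the gene's strand, and capitals mark matches to the NF-kB decamer (the kB decamer, searched by its consensus) or to GGANTTTCC, searched on both strands. The 2 motifs overlap.
CXCL8 (chr4:73740319-73740568, plus strand): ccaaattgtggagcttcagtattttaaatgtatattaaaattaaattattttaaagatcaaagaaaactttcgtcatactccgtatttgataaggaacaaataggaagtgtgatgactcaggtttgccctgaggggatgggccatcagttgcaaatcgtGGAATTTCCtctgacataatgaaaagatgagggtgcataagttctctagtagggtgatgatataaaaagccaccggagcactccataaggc
CXCL1 (chr4:73869143-73869392, plus strand): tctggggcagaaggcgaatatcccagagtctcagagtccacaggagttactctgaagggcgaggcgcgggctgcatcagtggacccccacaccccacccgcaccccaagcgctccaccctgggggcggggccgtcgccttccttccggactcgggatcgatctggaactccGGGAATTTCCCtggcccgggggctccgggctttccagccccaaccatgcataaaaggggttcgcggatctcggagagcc
IL6 (chr7:22726950-22727199, plus strand): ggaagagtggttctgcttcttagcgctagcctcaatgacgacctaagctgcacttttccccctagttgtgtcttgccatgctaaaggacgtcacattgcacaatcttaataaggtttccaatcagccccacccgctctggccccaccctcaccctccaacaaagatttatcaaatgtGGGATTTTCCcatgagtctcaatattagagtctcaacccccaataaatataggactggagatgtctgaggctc
ICAM1 (chr19:10270870-10271119, plus strand): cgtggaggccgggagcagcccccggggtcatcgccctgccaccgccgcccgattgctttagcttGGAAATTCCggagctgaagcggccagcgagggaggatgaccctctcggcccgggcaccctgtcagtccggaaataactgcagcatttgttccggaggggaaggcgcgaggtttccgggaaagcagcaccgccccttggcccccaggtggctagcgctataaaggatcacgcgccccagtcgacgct
The match in CXCL8 lay 91 to 83 bases before the start site, that in IL6 73 to 64 bases and that in CXCL1 79 to 70 bases before it (with a further match on the minus strand, 1 base on). CXCL2, CXCL3, CXCL5 and TNFRSF9 carried the same 10 letters as CXCL1, GGGAATTTCC.

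A RefSeq window was found for 13 of the 15 named genes higher with Sagunja-tang and for 11 of the 15 higher with Samul-tang. GGANTTTCC was present in 9 of the 13 (69.2%) and in 0 of the 11, against 1.45% of all 35116 windows and 2.01% of the tested genes. Over all called genes with a window it was in 36 of 537 (6.70%) of those higher with Sagunja-tang and in 9 of 539 (1.67%) of those higher with Samul-tang. The kB decamer was in 9 of the 13 (69.2%) and in 1 of the 11 (9.09%), against 9.96% of all windows and 15.4% of the tested genes, and in 20.1% and 16.9% of all genes called higher with Sagunja-tang and with Samul-tang. A match describes the letters of these windows and does not show that a factor was bound. The windows of CXCL1, CXCL2 and CXCL3 are near-identical around the site, so they do not count as independent matches. The named genes were picked by their fold changes in these data, so their shares describe these genes only.

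Interleukins and colony-stimulating factors followed the chemokines. IL6, a cytokine of the acute phase response, was at 47.1, 54 and 51.6 CPM with Sagunja-tang and at 7.91 and 6.55 CPM with Samul-tang, which was near the vehicle mean of 5.82 CPM. The groups did not overlap, and the difference was 7.04-fold (log2 2.81 ± 0.11 SE, adjusted p = 1.95e-22). CSF3, the growth factor of granulocytes, was at 13.8, 16.6 and 14.0 CPM against 0.588 and 0.283 CPM, a 33.8-fold difference (log2 5.08 ± 0.36 SE, adjusted p = 1.69e-14). CSF2, the growth factor of granulocytes and macrophages, was at 3.46, 4.10 and 3.84 CPM against 0.1103 and 0.0708 CPM, where the Samul-tang values rest on few counts (adjusted p = 7.93e-09).

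IL1B, which itself activates NF-kB, was at 28.98, 30.4 and 27.5 CPM with Sagunja-tang and at 7.80 and 9.07 CPM with Samul-tang. Here both formulas were above vehicle (4.79 CPM). IL1B was the 1 member of the list called higher than vehicle with Samul-tang (log2 0.82, adjusted p = 2.37e-05). The difference between the formulas was 3.43-fold (log2 1.78 ± 0.12 SE). IL1A was 3.52-fold higher with Sagunja-tang, IL32 5.68-fold, IL11 2.26-fold, IL33 2.17-fold and LIF 1.53-fold. TNF was at 0.488, 0.427 and 0.280 CPM with Sagunja-tang and had no count in either Samul-tang library, where 3 counts would be 0.1103 and 0.1063 CPM. In all, 12 of 14 tested members were higher with Sagunja-tang and 0 lower, with a median log2 difference of 1.48. Against vehicle, 13 were higher for Sagunja-tang and 1 for Samul-tang.

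Chemokines outside the ELR class did not move as a group: of 6 tested, 2 were called higher with Sagunja-tang and 2 lower. CCL2, the monocyte attractant, was at 130, 122 and 120 CPM with Sagunja-tang and at 30.9 and 28.5 CPM with Samul-tang, 4.17-fold apart (log2 2.06 ± 0.12 SE, adjusted p = 1.5e-17). CCL5 was 2.06-fold higher with Sagunja-tang, a call lost without Samul-tang library 2 (adjusted p = 0.00256 with all 5). CXCL12, a homeostatic chemokine, was at 10.1, 10.1 and 8.96 CPM against 14.7 and 13.8 CPM, so it was higher with Samul-tang (log2 -0.55 ± 0.10 SE). CX3CL1 was also higher with Samul-tang (log2 -0.73 ± 0.19 SE), and its call was lost without either Samul-tang library. Neither CXCL12 nor CX3CL1 was called with the 15 libraries of the formulas alone.

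The NF-kB subunits differed from each other. RELB was at 48.4, 49.5 and 46.5 CPM with Sagunja-tang and at 17.1 and 20.4 CPM with Samul-tang (log2 1.36 ± 0.17 SE, adjusted p = 9.52e-08). NFKB2, its usual partner in the non-canonical pathway, was 2.14-fold higher and NFKB1 1.55-fold higher. RELA, the main subunit of the canonical pathway, was at 74.0, 74.4 and 77.3 CPM against 71.5 and 77.5 CPM, overlapping groups with a log2 difference of 0.01 (95% interval -0.16 to 0.19, adjusted p = 0.968). For REL the interval was 0.12 to 1.14 (adjusted p = 0.128).

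Genes that restrain NF-kB were higher with Sagunja-tang too. NFKBIA, the inhibitor that holds NF-kB in the cytoplasm, was at 128, 141 and 139 CPM against 46.0 and 45.1 CPM with Samul-tang, and the Samul-tang libraries lay at the vehicle mean (47.1 CPM). TNFAIP3, a ubiquitin-editing enzyme of the same feedback loop, was 3.83-fold higher, NFKBIZ 3.08-fold, and ZC3H12A, a ribonuclease that degrades cytokine mRNAs, 3.19-fold. Of 12 tested inhibitors and feedback genes, 7 were higher with Sagunja-tang and 0 lower (median log2 0.89).

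Intracellular targets of NF-kB gave the most complete list beside the ELR chemokines, with 15 of 16 tested members higher with Sagunja-tang and 0 lower (median log2 1.60). SOD2, the mitochondrial superoxide dismutase, was at 678, 646 and 620 CPM with Sagunja-tang and at 134 and 117 CPM with Samul-tang. The difference was 5.17-fold (log2 2.37 ± 0.08 SE, adjusted p = 1.06e-24). Samul-tang was itself slightly above vehicle for SOD2 (104 CPM on average, log2 0.26, adjusted p = 0.0364).

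BIRC3, an inhibitor of apoptosis, was at 68.1, 72.1 and 74.2 CPM against 12.4 and 11.4 CPM, and IER3, an early response gene, at 14.6, 14.6 and 14.8 CPM against 2.13 and 2.37 CPM. PTX3, a soluble pattern recognition protein, was at 162, 166 and 158 CPM against 37.7 and 37.8 CPM. In each of these genes the libraries of 1 formula lay within a narrow band far from those of the other. BCL2A1, a relative of BCL2 that blocks apoptosis, had a log2 difference of 3.57 ± 0.49 SE at a level of 1.06 to 1.24 CPM with Sagunja-tang. With Samul-tang it was at 0.0736 and 0.106 CPM, at or below what 3 counts would give (0.1103 and 0.1063 CPM), so its fold is uncertain, and DESeq2 gave it no adjusted p.

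The cell surface showed a narrower difference. ICAM1, which binds leukocyte integrins, was at 381, 371 and 384 CPM with Sagunja-tang and at 60.5 and 64.9 CPM with Samul-tang, 6.04-fold apart (log2 2.59 ± 0.09 SE, adjusted p = 3.16e-25). It was the only adhesion molecule of 9 tested that was called higher with Sagunja-tang, and 1 was called lower. ICAM2 was also higher, at 2.73, 2.61 and 2.44 CPM against 1.545 and 1.70 CPM, and was not called. Without Sagunja-tang low library 1, 4 were called higher and 1 lower. With the 5 libraries alone, 2 were called higher and 1 lower. VCAM1, another ligand of leukocyte integrins, was at 2.73, 2.27 and 2.00 CPM against 2.50 and 1.31 CPM, groups that overlapped, with a 95% interval of -0.26 to 0.85 on the log2 scale. Among 24 tested receptors and adaptors of the IL1, TLR and TNF pathways, 2 were higher and 2 lower with Sagunja-tang (median log2 0.06). The 2 higher were TRAF1, an adaptor of TNF receptors (log2 1.38), and the kinase IRAK2 (log2 1.36), and the 2 lower were the TNF receptor TNFRSF1A (log2 -0.52) and the peptidoglycan sensor NOD1 (log2 -0.43). The call for NOD1 was lost without Samul-tang library 2, without Sagunja-tang library 3 and with the 15 libraries of the formulas.

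The remaining named genes on this side were also at the cell surface. TNFRSF9, a receptor of the TNF family that costimulates T cells, was at 7.16, 8.55 and 8.44 CPM against 1.40 and 1.27 CPM, a 6.01-fold difference. CLDN1, a protein of tight junctions, was at 24.3, 23.4 and 24.1 CPM against 4.60 and 4.60 CPM, and LRRN3, a membrane protein with leucine-rich repeats, at 23.7, 19.4 and 21.8 CPM against 5.15 and 4.14 CPM. None of these groups overlapped, and the log2 differences of CLDN1 and LRRN3 were 2.38 ± 0.15 SE and 2.22 ± 0.14 SE.

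Interferon-stimulated genes were higher with Sagunja-tang by smaller folds. MX1, a GTPase with antiviral activity, was at 31.2, 23.1 and 33.7 CPM with Sagunja-tang and at 12.2 and 14.2 CPM with Samul-tang (log2 1.15 ± 0.15 SE, adjusted p = 2.26e-07). IFIT3, which binds foreign RNA together with IFIT1, was at 35.6, 34.8 and 34.4 CPM against 18.2 and 18.98 CPM (log2 0.91 ± 0.09 SE, adjusted p = 1.35e-10). For IFIT3 the formulas lay on opposite sides of vehicle (26.4 CPM): log2 0.40 (adjusted p = 0.000128) for Sagunja-tang and -0.50 (adjusted p = 0.000172) for Samul-tang.

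In this list 18 of 28 tested members were higher with Sagunja-tang and 0 lower, with a median log2 difference of 0.67. RSAD2 (log2 2.68), OAS1 (1.53) and OASL (1.14) were among the highest folds, and OAS1 was not called without Samul-tang library 2. The count for the list was 10 with the 15 libraries of the formulas alone. Against vehicle, 23 of 28 were higher and 0 lower for Sagunja-tang (median log2 0.59). For Samul-tang 1 was higher and 1 lower (median log2 0.10), and the 1 lower was IFIT3.

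RefSeq has 2 windows for IFIT3, and 1 is printed because the list shares the interferon-stimulated response element. Capitals mark TTTCNNTTTC, the core of that element.
IFIT3 (chr10:89332279-89332528, plus strand): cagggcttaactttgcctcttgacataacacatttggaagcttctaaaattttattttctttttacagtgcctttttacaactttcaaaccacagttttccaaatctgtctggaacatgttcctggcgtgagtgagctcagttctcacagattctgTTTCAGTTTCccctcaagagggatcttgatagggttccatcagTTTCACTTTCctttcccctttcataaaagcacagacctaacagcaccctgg
The matches lay 94 to 85 and 51 to 42 bases before the start site. TTTCNNTTTC was present in 15 of the 21 genes of the list that had a window (71.4%), in 3.02% of all windows and in 3.47% of the tested genes, and in 0 of the 13 named genes higher with Sagunja-tang. These genes are textbook carriers of the element, so the share describes the list and not the formulas.

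MHC class I genes, which present peptides to T cells, were also on the Sagunja-tang side, with 9 of 15 tested members higher and 1 lower (median log2 0.39). HLA-B was at 481, 517 and 469 CPM against 342 and 342 CPM, and TAP1, the peptide transporter, at 100.7, 104 and 102 CPM against 75.9 and 79.7 CPM. Both were without overlap, at log2 0.52 ± 0.16 SE (adjusted p = 0.0372) and 0.40 ± 0.09 SE (adjusted p = 0.00392). HLA genes share sequence, so their counts are uncertain. HLA-B was not called when any 1 of the 5 libraries was left out (adjusted p = 0.055 to 0.226), and TAP1 was not called without Samul-tang library 1. Of the list, 3 members were called higher without Samul-tang library 1 and without library 2, 5, 4 and 6 without Sagunja-tang library 1, 2 and 3, and 0 with the 15 libraries of the formulas.

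**Figure D2:**
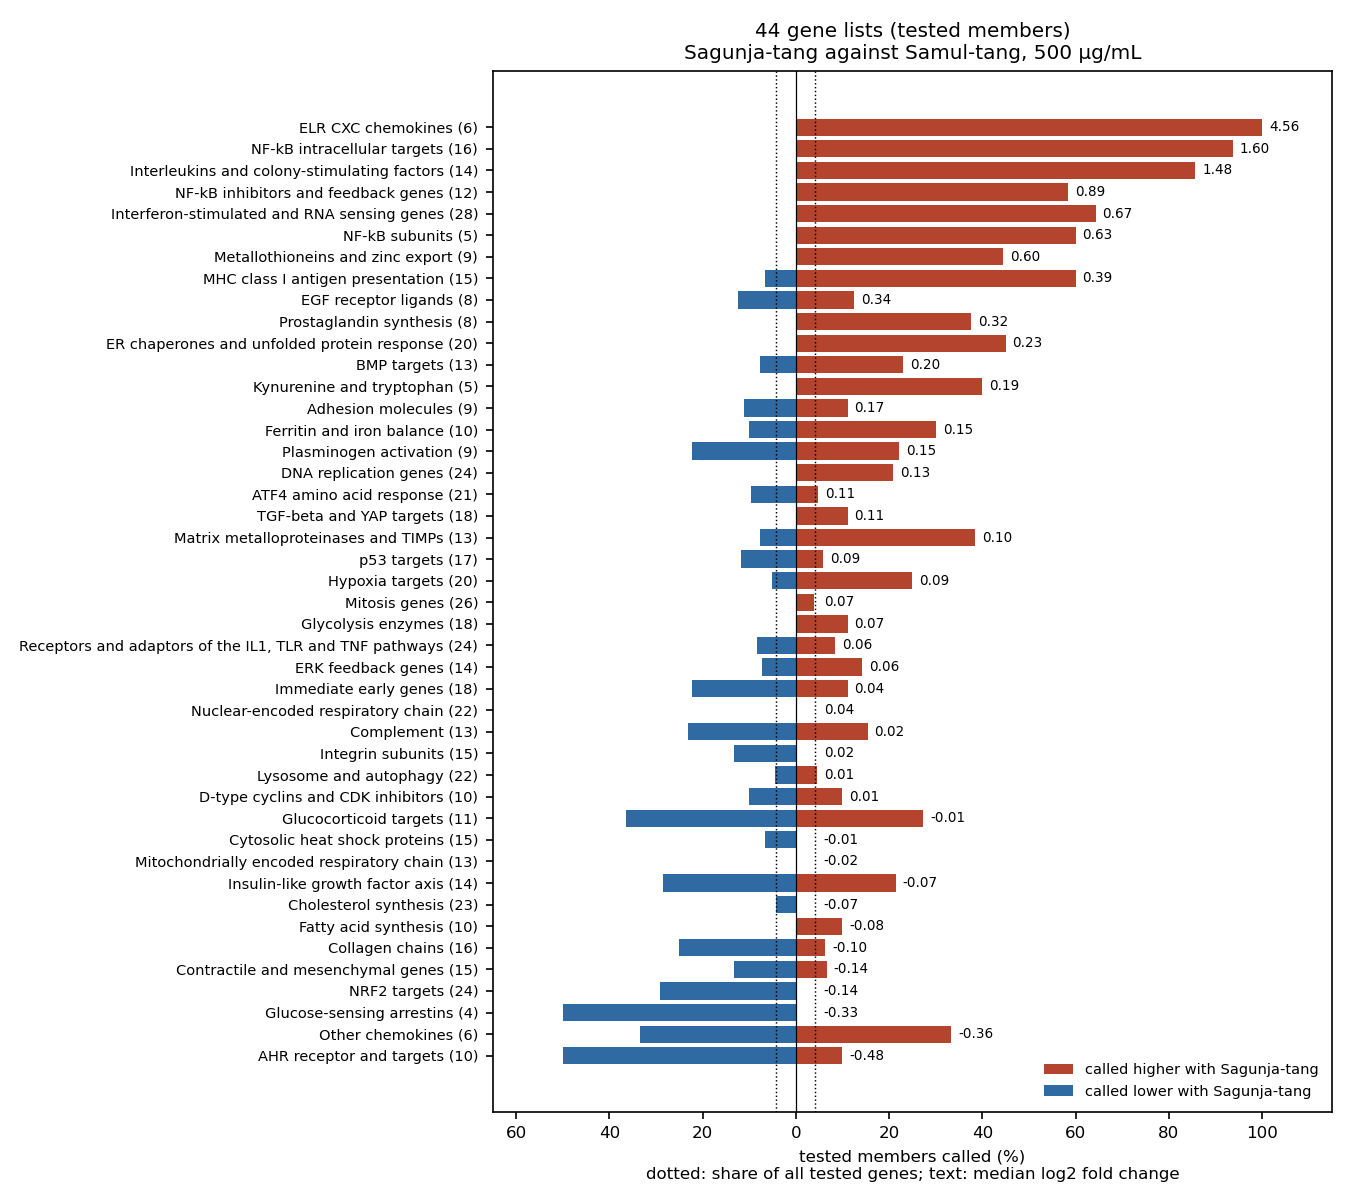
Share of the tested members (number in brackets) of each of the 44 gene lists called higher (red, to the right) or lower (blue, to the left) with Sagunja-tang than with Samul-tang at 500 µg/mL, ordered by the median log2 fold change, which is printed beside each bar. Dotted lines mark the share of all tested genes, 4.08% and 4.28%. ELR chemokines (6 of 6), intracellular targets of NF-kB (15 of 16) and interleukins and colony-stimulating factors (12 of 14) lead the red side, and AHR targets (5 of 10) are among the longest blue bars.

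Other secreted and extracellular proteins joined the inflammatory genes. Complement component C3 was at 176, 162 and 175 CPM with Sagunja-tang and at 41.8 and 46.9 CPM with Samul-tang, 3.86-fold apart, and CFB, a protease of the alternative complement pathway, was 2.46-fold higher. C5, the complement component downstream of C3, went the other way: it was at 2.44, 1.67 and 2.40 CPM against 5.59 and 5.88 CPM (log2 -1.40 ± 0.18 SE, adjusted p = 1.25e-07). C4B and C4A were lower with Sagunja-tang as well (log2 -0.83 and -0.55), but they are near-identical copies whose counts are uncertain, and the call for C4A was lost without Sagunja-tang library 1, Sagunja-tang library 3 or either Samul-tang library.

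PTGS2, the inducible cyclooxygenase, was at 177, 157 and 158 CPM against 83.6 and 81.5 CPM, a 1.99-fold difference (adjusted p = 5.45e-05), which was not called with the 15 libraries of the formulas. PTGES, the enzyme that completes prostaglandin E2 synthesis, was 5.34-fold higher at a low level. SERPINB2, an inhibitor of plasminogen activators, was at 249, 240 and 228 CPM against 57.6 and 52.4 CPM (log2 2.12 ± 0.08 SE, adjusted p = 7.94e-24). Matrix metalloproteinases, which cut the extracellular matrix, were higher for MMP12 (4.16-fold), MMP9 (3.13-fold), MMP1 (1.67-fold) and MMP3 (1.58-fold), while MMP2 was lower (log2 -0.37, a call lost without Samul-tang library 2).

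**Figure D3:**
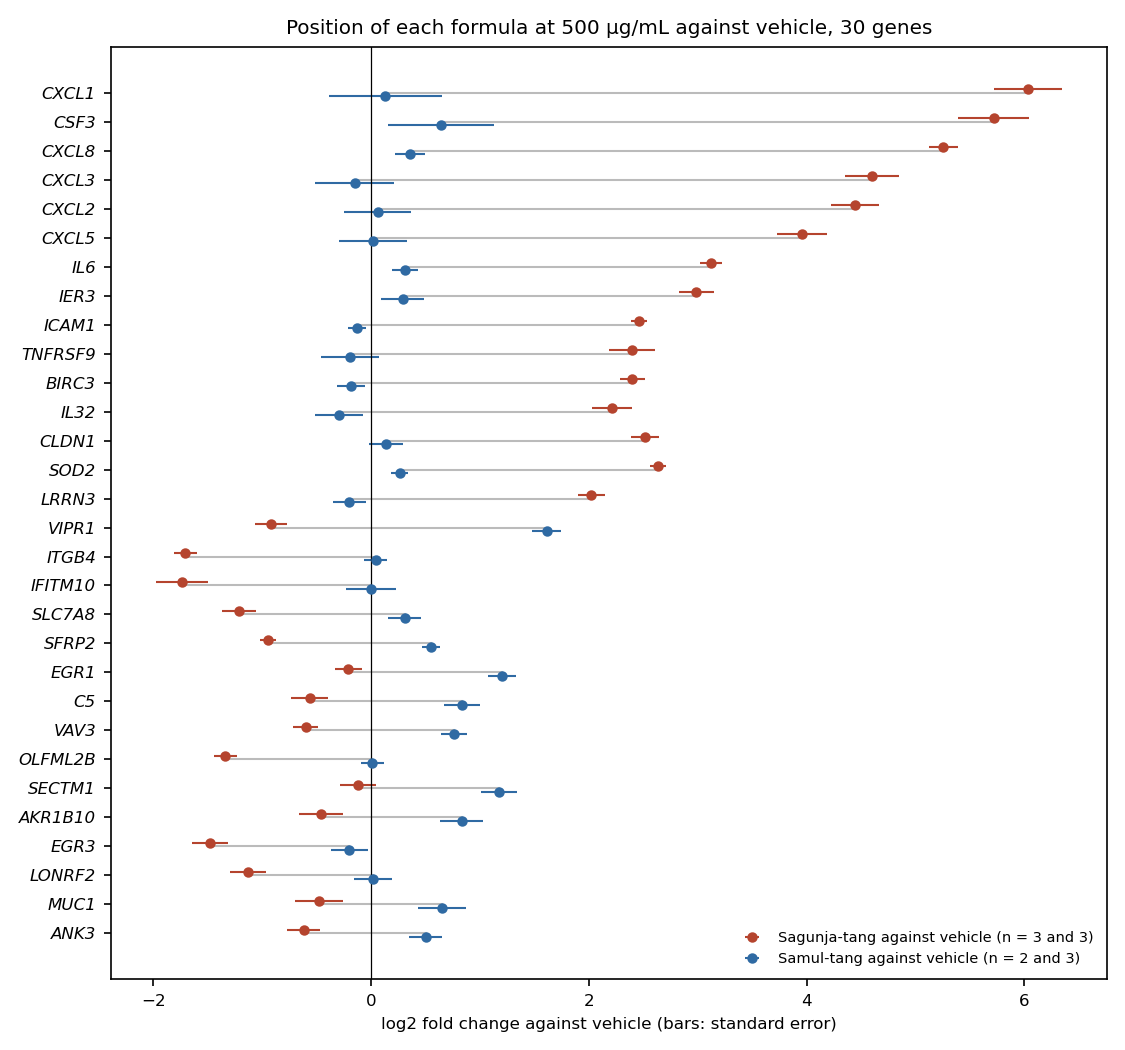
Log2 fold change of each formula at 500 µg/mL against the same 3 vehicle libraries (points, with bars of 1 SE) for the 15 named genes highest with Sagunja-tang and the 15 highest with Samul-tang. For CXCL1 the values are 6.03 and 0.13, for ICAM1 2.46 and -0.13, for VIPR1 -0.92 and 1.61 and for EGR1 -0.21 and 1.20 (Sagunja-tang first).

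Genes higher with Samul-tang were led by receptors, matrix and signalling genes. VIPR1, the receptor of vasoactive intestinal peptide, was at 1.59, 1.71 and 1.56 CPM with Sagunja-tang and at 10.3 and 8.46 CPM with Samul-tang. Vehicle lay between them at 3.06 CPM, and both formulas differed from it, with log2 -0.92 (adjusted p = 1.26e-05) for Sagunja-tang and 1.61 (adjusted p = 6.38e-11) for Samul-tang. The difference between the formulas was 5.79-fold (log2 -2.53 ± 0.14 SE, adjusted p = 1.5e-17).

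SFRP2, a secreted modulator of WNT signalling, had the same pattern, at 15.9, 17.2 and 16.9 CPM against 46.4 and 47.4 CPM with vehicle at 32.1 CPM (log2 -1.49 ± 0.08 SE, adjusted p = 6.55e-18). VAV3, a guanine nucleotide exchange factor, was at 6.02, 5.30 and 6.24 CPM against 15.9 and 14.2 CPM, with vehicle at 8.89 CPM. VIPR1, SFRP2 and VAV3 were thus each called below vehicle with Sagunja-tang and above it with Samul-tang, as was C5.

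Other genes had other patterns. ITGB4, the integrin subunit of hemidesmosomes, was at 5.70, 5.99 and 6.96 CPM with Sagunja-tang and at 17.9 and 23.8 CPM with Samul-tang, which overlapped the vehicle libraries (20.3 CPM on average). IFITM10, OLFML2B and LONRF2 were likewise lower than vehicle with Sagunja-tang (log2 -1.73, -1.34 and -1.13), with log2 values of 0.00, 0.01 and 0.02 for Samul-tang. SLC7A8, a carrier of neutral amino acids, was at 2.48, 2.14 and 2.48 CPM against 6.21 and 7.40 CPM, and against vehicle it was called for Sagunja-tang (log2 -1.21) and not for Samul-tang (0.31, adjusted p = 0.298). ANK3, which anchors membrane proteins to the cytoskeleton, was at 3.42, 3.72 and 3.64 CPM against 7.36 and 8.29 CPM (log2 -1.12 ± 0.16 SE), with log2 values against vehicle of -0.62 (adjusted p = 0.00303) for Sagunja-tang and 0.50 (adjusted p = 0.0512) for Samul-tang. MUC1, a membrane mucin, was at 2.69, 2.05 and 2.16 CPM against 4.93 and 5.14 CPM, and neither formula differed from vehicle in it beyond the threshold (adjusted p = 0.143 for Sagunja-tang and 0.0864 for Samul-tang).

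EGR1, an immediate early transcription factor, was the reverse case. It was at 13.2, 17.2 and 18.6 CPM with Sagunja-tang, near the vehicle mean of 18.9 CPM. With Samul-tang it was at 38.3 and 48.7 CPM, above vehicle (log2 1.20, adjusted p = 4.37e-08). SECTM1, which encodes a secreted and membrane protein, was likewise above vehicle with Samul-tang (log2 1.18, adjusted p = 7e-06) and had a log2 value of -0.12 for Sagunja-tang. EGR3, a relative of EGR1, had another pattern: it was at 3.91, 3.38 and 2.40 CPM with Sagunja-tang, at 6.69 and 8.996 CPM with Samul-tang and at 9.01 CPM in vehicle. Over 18 tested immediate early genes, 2 were higher with Sagunja-tang and 4 lower, with a median log2 difference of 0.04.

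AHR targets were mostly higher with Samul-tang. ALDH3A1, an aldehyde dehydrogenase, was at 0.0814, 0.0855 and 0.120 CPM with Sagunja-tang and at 1.43 and 1.13 CPM with Samul-tang, against 0.264 CPM in vehicle (log2 difference between the formulas -3.67 ± 0.35 SE, adjusted p = 1.25e-10). The Sagunja-tang values are at or below the 0.120 to 0.128 CPM that 3 counts would give, so its fold is uncertain. CYP1B1, a cytochrome P450 of the CYP1 family, was at 113, 119 and 112 CPM against 185 and 171 CPM, with vehicle at 114 CPM. Sagunja-tang and vehicle had nearly the same CYP1B1 level (log2 0.01), and Samul-tang was above it (log2 0.64, adjusted p = 4.03e-06).

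CYP1A1 was at 0.895, 0.812 and 1.04 CPM with Sagunja-tang and at 2.02 and 2.16 CPM with Samul-tang, and AHRR, the repressor of the receptor, had a log2 difference of -0.73 ± 0.11 SE. The receptor AHR itself was at 108, 99.6 and 108 CPM against 81.9 and 78.0 CPM, without overlap and not called (95% interval of the log2 difference 0.03 to 0.77, adjusted p = 0.202). Of 10 tested members, 5 were higher with Samul-tang and 1 with Sagunja-tang (median log2 -0.48), and that 1 was SERPINB2. Against vehicle, 7 were higher for Samul-tang and 2 for Sagunja-tang. With the 15 libraries of the formulas, 3 members were called higher with Samul-tang, and CYP1A1 and NQO1 were not among them.

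NRF2 targets, which detoxify electrophiles and restore glutathione, showed 7 of 24 members lower with Sagunja-tang and 0 higher (median log2 -0.14). NQO1, a quinone reductase shared with the AHR list, was at 148, 165 and 141 CPM against 219 and 213 CPM (log2 -0.52 ± 0.12 SE, adjusted p = 0.00254). AKR1B10, an aldo-keto reductase with a close copy in AKR1B15, had a log2 difference of -1.29 ± 0.20 SE. Other central members did not separate the formulas. The log2 difference of HMOX1 had a 95% interval of -0.21 to 0.17, that of GCLM -0.10 to 0.15, that of SRXN1 -0.04 to 0.18 and that of TXNRD1 -0.30 to 0.14. None of the list was called with the 15 libraries of the formulas.

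Among metallothioneins, small proteins that bind zinc and copper, 3 were called on opposite sides of vehicle with the formulas. MT2A was at 820, 1022 and 905 CPM with Sagunja-tang, at 345 and 380 CPM with Samul-tang and at 486 CPM in vehicle. It was above vehicle with Sagunja-tang (log2 0.91, adjusted p = 6.79e-08) and below it with Samul-tang (log2 -0.42, adjusted p = 0.0459). The single-herb extracts at this dose lay below vehicle too, and vehicle is in another set of sample codes. Between the formulas MT2A differed 2.52-fold (log2 1.34 ± 0.13 SE, adjusted p = 2.66e-10). MT1X and MT1E had the same order and were also called against vehicle in both directions, with log2 differences between the formulas of 1.15 and 1.11, though MT1 genes are close copies. SLC39A14, a zinc importer, was at 358, 344 and 330 CPM against 163 and 153 CPM. These were the 4 called members of 9 tested, and 0 were lower. MT1A and MT1F, each under 0.6 CPM in all 5 libraries, were not called between the formulas or against vehicle.

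UCA1, a long noncoding RNA, was at 5.94, 5.94 and 6.48 CPM with Sagunja-tang and 5.62 CPM in vehicle, and at 1.07 and 1.67 CPM with Samul-tang. Here the difference of 4.46-fold lay on the Samul-tang side (log2 -2.03 against vehicle, adjusted p = 2.22e-08), with 0.12 for Sagunja-tang. ID3, an inhibitor of basic helix-loop-helix factors and a BMP target, was alike in this, at 156, 179 and 162 CPM against 81.6 and 89.3 CPM with vehicle at 181 CPM. ID2 was lower than vehicle with both formulas, by log2 -0.40 with Sagunja-tang and -1.01 with Samul-tang, and differed between them by 0.61 ± 0.12 SE. BMP2, a ligand of that pathway, was at 3.70, 2.95 and 3.12 CPM against 1.10 and 0.992 CPM, and it was above vehicle with Sagunja-tang (log2 1.88, adjusted p = 2.61e-10).

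Further single genes followed Samul-tang. TXNIP, an arrestin induced by glucose that limits its uptake, was at 10.5, 13.4 and 11.6 CPM against 22.9 and 21.4 CPM, with vehicle at 9.54 CPM. IGFBP1, a binding protein of insulin-like growth factors, was at 27.8, 27.8 and 26.3 CPM against 50.3 and 44.6 CPM, with vehicle at 20.5 CPM. Both were thus highest with Samul-tang. BNIP3, a hypoxia-induced mitophagy receptor, was at 124, 129 and 123 CPM against 81.5 and 76.2 CPM, with vehicle at 119 CPM, and CCND1 (cyclin D1) was at 212, 207 and 213 CPM against 153 and 162 CPM, with vehicle at 211 CPM. Both were lowest with Samul-tang (log2 against vehicle -0.59, adjusted p = 1.87e-08, and -0.42, adjusted p = 5.37e-06).

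Chaperones of the endoplasmic reticulum differed by small amounts, with 9 of 20 tested members higher with Sagunja-tang and 0 lower (median log2 0.23). HSPA5, the main chaperone, was at log2 0.41 ± 0.06 SE (adjusted p = 3.11e-06), and HERPUD1, a gene of protein degradation, at 0.36 ± 0.06 SE. Against vehicle, 4 were called higher and 1 lower for Sagunja-tang, and 0 higher and 5 lower for Samul-tang. The count was 6 without Samul-tang library 1, 4 without library 2 and 1 with the 15 libraries of the formulas.

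Some markers of fibroblasts and epithelia were lower with Sagunja-tang. Of 9 tested fibroblast markers 4 were lower and 0 higher, and their summed level was 4978 to 5008 CPM with Sagunja-tang, 5599 to 6186 CPM with Samul-tang and 6567 to 6611 CPM in vehicle. KRT18, a keratin of simple epithelia, was at 104, 112 and 104 CPM against 200 and 209 CPM (log2 -0.94 ± 0.12 SE, adjusted p = 2.97e-07). ACTA2, smooth muscle actin, was at 62.8, 62.7 and 64.1 CPM against 98.8 and 109 CPM, with vehicle at 137 CPM. The summed epithelial markers, of which 2 of 5 tested were lower, were 117.4 to 126.5 CPM against 220.1 to 231.5 CPM, with CDH1 at 0 and EPCAM under 0.5 CPM in all 5. With the 15 libraries of the formulas, 1 fibroblast and 1 epithelial marker were called lower. Between the formulas, contractile and mesenchymal genes did not move as a group, with 1 of 15 tested higher with Sagunja-tang and 2 lower. TPM1, a tropomyosin, was the 1 called higher (log2 0.23), and FN1 and CDH2 had log2 differences of 0.21 and 0.27 and were not called. Without Sagunja-tang low library 1, 4 were higher and 6 lower. Against vehicle, 10 were lower and 0 higher for Sagunja-tang (median log2 -0.38), and 3 lower and 0 higher for Samul-tang (median log2 -0.22). Whether these levels have a part in the inflammatory difference was not tested, and in bulk RNA fewer cells of a kind and less RNA per cell cannot be told apart.

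Some programmes did not separate the formulas. CCN2, a matricellular protein that TGF-beta and YAP induce, was at 95.2, 105 and 110 CPM with Sagunja-tang and at 114 and 120 CPM with Samul-tang, both below vehicle (189 CPM). The log2 difference between the formulas had a 95% interval of -0.44 to 0.08. CCN1 was above vehicle (348 CPM) with both, at 540 and 491 CPM on average, with an interval of -0.08 to 0.35. Of the respiratory chain, 0 of 22 nuclear and 0 of 13 mitochondrially encoded genes were called by edgeR, with medians of 0.04 and -0.02. For the 26 mitosis genes 1 was called higher and 0 lower, and for the 23 genes of cholesterol synthesis 0 were called higher and 1 lower.

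At lower doses the formulas differed in fewer genes. At 100 µg/mL, 212 genes (1.21%) were called, 144 (0.822%) higher with Sagunja-tang and 68 (0.388%) lower. Without TMM factors 57.1% of the calls were higher, and 67.9% with them. At 20 µg/mL, 256 genes (1.46%) were called, 207 (1.18%) higher and 49 (0.280%) lower, but that count rests on Sagunja-tang library 1, which stood apart: it was 39 without that library, 6136 and 6827 without library 2 and library 3 of Sagunja-tang, and 17 and 20 without Samul-tang library 1 and library 2.

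CXCL8 was at 15.7, 21.6 and 23.3 CPM with Sagunja-tang at 20 µg/mL and at 89.2, 113 and 91.5 CPM at 100 µg/mL, and with Samul-tang at 5.54 and 6.32 CPM and at 9.24 and 8.33 CPM. The groups did not overlap at any dose (25.7% of all tested genes at 100 µg/mL and 22.4% at 20 µg/mL), and the log2 difference was 1.77 at 20 µg/mL (adjusted p = 2.49e-10), 3.48 at 100 µg/mL (adjusted p = 5.77e-21) and 4.89 at 500 µg/mL. IL6 was at 7.79, 9.19 and 9.34 CPM against 4.94 and 4.44 CPM at 20 µg/mL, and at 23.6, 22.9 and 22.0 CPM against 5.17 and 6.19 CPM at 100 µg/mL. IL6, ICAM1 and SOD2 thus also differed at every dose, by log2 0.91, 0.85 and 0.90 at 20 µg/mL and 2.01, 1.72 and 1.62 at 100 µg/mL. CXCL8 was still called at 20 µg/mL without Sagunja-tang library 1 (log2 1.92), but no gene was called there by edgeR with the 5 low-dose libraries alone (116 genes had an unadjusted p under 0.05).

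VIPR1 separated the formulas at 100 µg/mL, at 2.73, 2.15 and 1.505 CPM against 5.17 and 5.38 CPM (log2 -1.30, adjusted p = 3.23e-08). At 20 µg/mL it was at 3.17, 3.37 and 2.90 CPM against 4.07 and 4.40 CPM and was not called (log2 -0.43, adjusted p = 0.0673). CYP1B1 was lower with Sagunja-tang at 100 µg/mL (log2 -0.50, adjusted p = 0.000363). At 20 µg/mL it was at 75.3 CPM in Sagunja-tang library 1, which stood apart, and at 107.9 CPM or more in its replicates, against 130 and 128 CPM with Samul-tang (log2 -0.38, adjusted p = 0.0351). MT2A differed at 100 µg/mL (log2 0.97, adjusted p = 1.72e-06) and was not called at 20 µg/mL (log2 0.37, adjusted p = 0.067), and UCA1 was 0.70 on the log2 scale at 100 µg/mL (adjusted p = 0.0496) and 0.12 at 20 µg/mL.

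**Figure D4:**
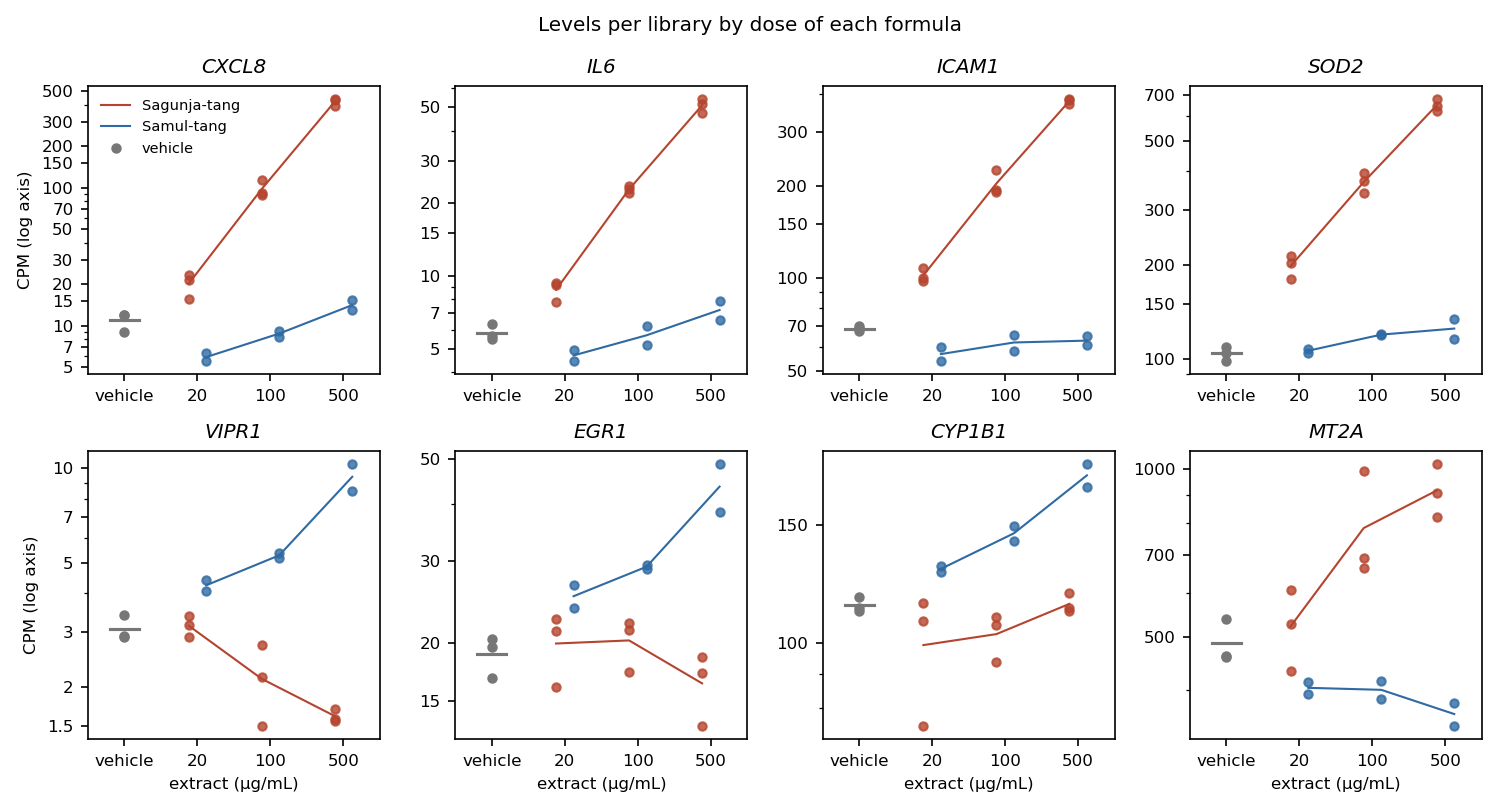
Level of 8 genes in each library (points, CPM on a log axis) by dose of Sagunja-tang (red, n = 3 at each dose) and Samul-tang (blue, n = 2), with vehicle in grey (n = 3). Lines join the group means and grey bars mark the vehicle means. The means of CXCL8, IL6, ICAM1 and SOD2 are higher at each higher dose of Sagunja-tang, and by smaller steps also of Samul-tang. With Samul-tang the mean of ICAM1 lies below the vehicle mean at every dose, and that of SOD2 above it. The Samul-tang means of CXCL8 and IL6 lie below the vehicle means except at the highest dose. VIPR1 and EGR1 lie higher with Samul-tang at every dose, with the widest gap at the highest dose.

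The change from 20 µg/mL to 500 µg/mL was then compared between the formulas in a single test, with 506 genes called (2.89%), 251 (1.43%) with a larger log2 change for Sagunja-tang and 255 (1.46%) with a smaller one. For CXCL8 the change was larger with Sagunja-tang by log2 3.12 (adjusted p = 1.62e-14), for IL6 by 1.91 (adjusted p = 6.13e-11), for ICAM1 by 1.74 (adjusted p = 1.62e-14) and for SOD2 by 1.47 (adjusted p = 5.16e-13). For VIPR1 it was smaller by -2.11 (adjusted p = 2.29e-09). Intracellular targets of NF-kB were called in 13 of 16 and ELR chemokines in 4 of 6, all larger with Sagunja-tang. CXCL1 was not called (log2 2.75, adjusted p = 0.0574). Of all genes, 12 were called with the 10 libraries of both doses alone, 30 with the 15 libraries of the formulas, 2915 and 3926 without Sagunja-tang low library 2 and library 3, and 214, 231 and 205 without Samul-tang high library 2, low library 1 and low library 2.

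Extracts of single herbs at the same dose place the formulas among their relatives, including the 4 traditional ingredients of Samul-tang, at doses that do not match their share in a formula. Angelica and Paeonia have 1 library each and the others 3, and these values are given side by side with no test. The sample codes put the single herbs in other sets than the formulas, so set and extract cannot be told apart here. CXCL8 was at 420 ± 27.4 CPM (SD, n = 3) with Sagunja-tang, and the next levels were 14.1 ± 1.6 CPM (SD, n = 2) with Samul-tang, 14.0 ± 1.51 CPM (SD, n = 3) with Rehmannia and 13.7 CPM with Paeonia. ICAM1 was at 379 CPM with Sagunja-tang and at 78.4 CPM with Cinnamon, the next.

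VIPR1 was at 10.4 CPM with Paeonia, 9.40 CPM with Samul-tang and 8.39 CPM with Rehmannia, with 4.36 CPM for Cnidium and 3.501 CPM for Angelica. SFRP2 was at 46.9 CPM with Samul-tang, 46.7 CPM with Paeonia and 46.3 CPM with Rehmannia, and Sagunja-tang had the lowest of the 8 levels (16.7 CPM). UCA1 was lowest with Paeonia (1.10 CPM) and Samul-tang (1.37 CPM), then Rehmannia (3.12 CPM). ALDH3A1 was at 1.503 CPM with Paeonia, 1.28 CPM with Samul-tang and 1.00 CPM with Cinnamon. VIPR1 and SFRP2 were thus alike with Samul-tang, Paeonia and Rehmannia. EGR1 was highest with Samul-tang (43.5 CPM), above Paeonia (35.5 CPM), and MT2A was at 916 CPM with Sagunja-tang, where the others of these extracts lay at 147 to 373 CPM, below the vehicle mean of 486 CPM.

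**Figure D5:**
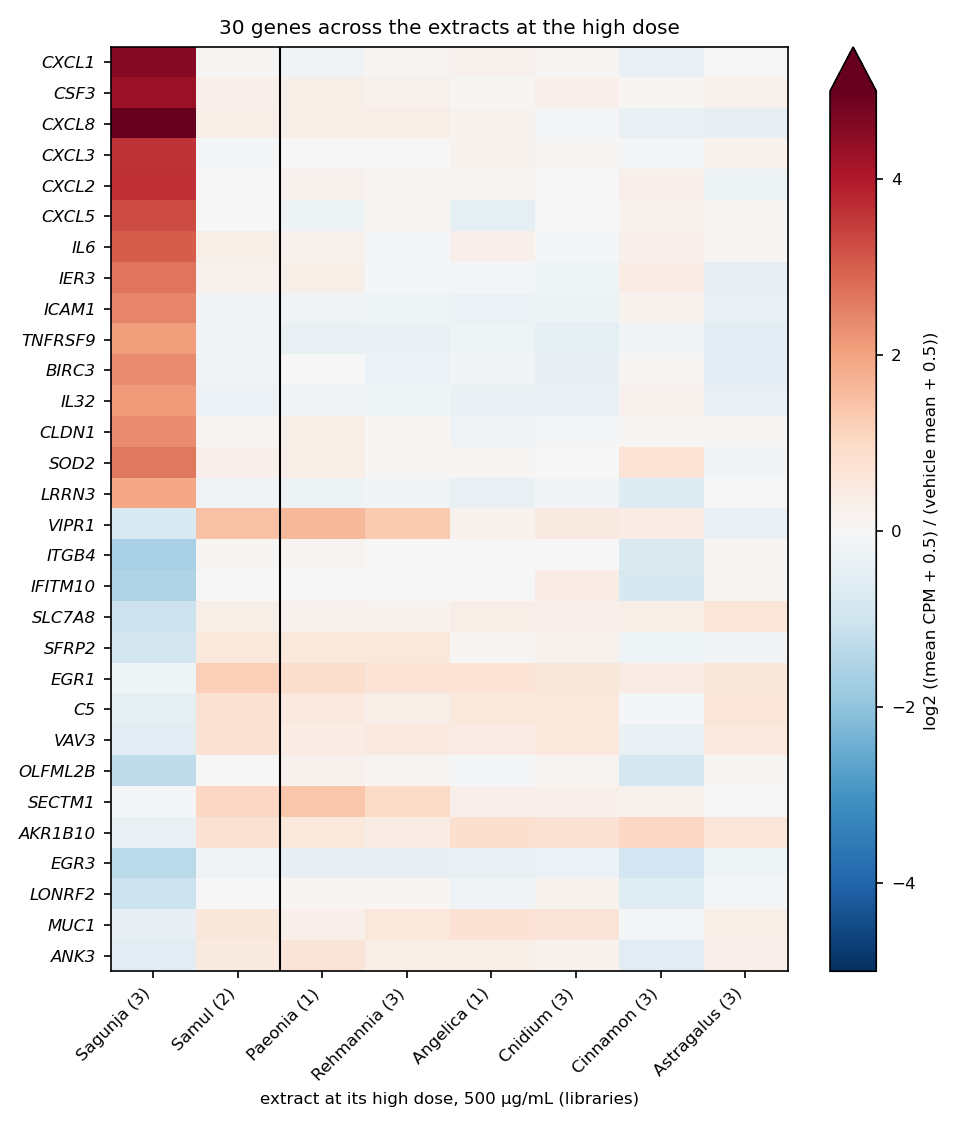
Log2 ratio of the mean level to the vehicle mean (colour, both with 0.5 CPM added) for the 30 named genes (rows) in 8 extracts at 500 µg/mL (columns, number of libraries in brackets), with the formulas left of the line. The darkest red cells, of chemokines and NF-kB targets, are in the Sagunja-tang column, and VIPR1 is red with Samul-tang, Paeonia and Rehmannia.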

How the data were processed

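The authors deposited RSEM expected counts per gene for 60675 genes. The submitters' processing notes name FastQC 0.11.9, Trim Galore 0.6.5, STAR 2.7.3a, RSEM 1.3.3 and hg38 (GRCh38); the sources used here do not give the annotation release. Per the labels, the libraries were directional and prepared from mRNA. Of 279 columns, 60 matched samples and 219 of per-sample values were not used. Expected counts were rounded (90.67% of values were whole already).

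Genes were filtered with filterByExpr. One model in edgeR 4.0.16 (R 4.3.3) took the 54 libraries of the 19 groups that hold 2 or more: TMM scaling, estimateDisp, glmQLFit with its robust option and glmQLFTest, with 35 residual degrees of freedom and Benjamini-Hochberg adjustment over the 17516 genes of each comparison. Tests are two-sided. On simulated data with the same groups, edgeR called 12%, 58%, 82% and 100% of genes changed 1.25-, 1.5-, 2- and 4-fold (50 genes each), with 5 false calls among 17435 genes. The changed genes all averaged above 1 CPM with Samul-tang, so the shares do not cover lower genes such as CXCL1. The counts were drawn from the fitted model, so the false calls do not test that model. No replicate pair at the high dose agreed as closely as counting noise alone.

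The libraries and lists (44 of pathways, 8 of markers, 727 genes) were chosen with earlier results of these data known. Named genes had an adjusted p under 0.05, at least 5 CPM in the higher group and no overlap, the 15 largest fold changes in each direction (5 for other comparisons; in the test between dose changes overlap was allowed), plus up to 6 called members of a list with at least 1 CPM. Members outside the rule (CXCL6, TNF, uncalled genes, and some genes named at another dose) were chosen after their values were seen. Alternatives were DESeq2 1.42.0, other scaling, filters and sample sets, a replicate block, and leaving out each library.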

Additional observations from a re-analysis of the deposited data

Results flagged for a closer look

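In 10 genes, the 5 largest in each direction by the rule for named genes, the change from 20 µg/mL to 500 µg/mL differed between the formulas in edgeR's test of that difference. It was larger with Sagunja-tang for CXCL3 (log2 3.21, adjusted p = 5.69e-05), CXCL8 (3.12, adjusted p = 1.62e-14), CXCL2 (2.58, adjusted p = 0.00017), CXCL5 (2.45, adjusted p = 0.000245) and UCA1 (2.04, adjusted p = 6.75e-06). It was smaller for VIPR1 (-2.11, adjusted p = 2.29e-09), IFITM10 (-1.73, adjusted p = 0.0027), MUC1 (-1.47, adjusted p = 0.00705), AKR1C3 (-1.46, adjusted p = 0.046) and AKR1B10 (-1.39, adjusted p = 0.00307). Sagunja-tang library 1 of the low dose was high for AKR1C3 (33.2 CPM, against 7.73 and 10.9 CPM in its replicates) and for IFITM10 (8.20 CPM, against 4.25 and 2.90 CPM). Without it the value of AKR1C3 was -0.58 (adjusted p = 0.324) and that of MUC1 -0.97 (adjusted p = 0.0379), and CXCL8 stayed at 2.98 (adjusted p = 1.51e-15). With the 15 libraries of the formulas alone, CXCL8, CXCL2, CXCL5, UCA1 and VIPR1 were called, and CXCL3, IFITM10, MUC1, AKR1C3 and AKR1B10 were not (adjusted p = 0.0745 to 0.779). With the libraries of these 4 groups alone, CXCL8 (adjusted p = 0.00675) and VIPR1 (adjusted p = 0.0172) were called and the other 8 were not, among them UCA1 (adjusted p = 0.0736), CXCL2 and CXCL5 (both 0.24) and CXCL3 (0.389).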

How the results depend on the processing

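No gene named in the high-dose comparison changed sign under any alternative run. Of 172 such genes, DESeq2 called 171 and gave BCL2A1 no adjusted p, the fit without TMM factors 168, the fit without a filter on low counts (without the robust option, which could not be fitted there) 145, the 15 libraries of the formulas 89, and fits that left out 1 library 127 to 155. Leaving out 1 library gave 702 to 1193 called genes for the formulas at the high dose, 2025 to 2302 for Sagunja-tang and 224 to 463 for Samul-tang against vehicle, 95 to 166 at the medium dose, 17 to 6827 at the low dose and 205 to 3926 for the dose changes. In the same order, the groups compared alone gave 2389, 6477, 2227, 137, 0 and 12 (at the low dose edgeR left 116 genes at an unadjusted p under 0.05), the 15 libraries of the formulas (with vehicle where needed) 371, 1062, 111, 40, 9 and 30, and the fit without Sagunja-tang low library 1 3067, 5400, 2336, 527, 39 and 534. At the low dose the count was also 1978 with DESeq2, 69 without TMM factors, 3158 without a filter and 1394 with a stricter one, and the dose changes gave 1551 without a filter; the cause was not tested. The replicate numbers did not pair the libraries (correlations of deviations 0.00 and -0.09 at the high dose): with the replicate block 1645 genes were called at the high dose, 1118 for Samul-tang against vehicle and 4558 at the low dose. Depth limits genes under about 0.1 CPM, where 3 counts lie.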
